A study of Myotis pilosus with 4 samples.

Results

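miR-574a-5p, miR-574b-5p and miR-3135-5p are 3 of the mature miRNAs, 119 conserved and 77 bat-specific, that the study lists for the bat Myotis ricketti (the sample labels name the organism Myotis pilosus). They were selected on their measured reads, because all were lower in the hibernating than in the active library of white adipose tissue (WAT). Their WAT ratios are therefore given as a description and support nothing. Small RNA was sequenced from 4 libraries, with the RNA of 3 wild bats of each state pooled and 1 library made per tissue and state. The hibernating bats, caught cold in deep hibernation in March, provided hibernating brain (HB) and hibernating intra-abdominal WAT (HA). The active bats, warm when caught in October and called aroused in the labels, provided active brain (AB) and active WAT (AA), so state and season cannot be told apart. The labels name no other treatment. No condition has a replicate, so no p-value is given, and every interval below is a 95% interval for counting error alone. The intervals treat each read as independent, so reads amplified from the same molecule would make them too narrow. In such bulk pools, fewer cells of a type and less RNA per cell cannot be told apart.

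Mature miRNAs are short RNAs cut from a hairpin precursor, and their seed (bases 2 to 8) pairs with target mRNAs, whose translation and stability they lower. The mammalian miR-574-5p is known for its repeated G and U bases. miR-3135 is a name from the miRNA database, and the study assigned names with mismatches to the database entry allowed. Its first bases are also those with which Y3 RNA begins, a small cytoplasmic RNA bound by the Ro60 protein whose ends pair into a stem. Fragments of Y RNAs are common in small RNA libraries. No reference sequence of a precursor or a Y RNA was used here, so the origin of these tags was not tested.

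The 3 sequences are printed first because their composition and their overlap bear on every count below. They are written 5′ to 3′ as DNA letters, with the seed in capitals.
miR-574a-5p: tGAGTGTGtgtgtgtgagt
miR-574b-5p: tGAGTGTGtgtgtgtgag
miR-3135-5p: gGCTGGTCcgagtgcagt
miR-574a-5p is 19 nt long and miR-574b-5p is 18 nt long, and the first equals the second plus 1 nt at the 3′ end. Both carry the seed GAGTGTG, which no other listed miRNA has, so they differ in name and in a terminal T but not in the bases that choose targets. miR-3135-5p is 18 nt long and its seed GCTGGTC is found in no other listed miRNA.

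The base composition of the miR-574-5p sequences was extreme among the listed miRNAs. miR-574a-5p consists of 9 G, 8 T and 2 A, which is 89.5% G or T and the highest share of all listed sequences. miR-574b-5p has 9 G, 7 T and 2 A, or 88.9%, the second highest, and the third highest was 83.3%. The median over the list was 54.5%. Neither holds a C, which is so for 9 listed miRNAs in all. miR-3135-5p has 8 G, 4 T, 2 A and 4 C, and with 66.7% G or T it ranked 30. All 3 are short, and 42 listed sequences are 18 or 19 nt long.

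Levels are reads per 1000000 clean reads (RPM) of the tag (distinct sequence) identical to the listed miRNA. In WAT, miR-574a-5p was read 338 times in active and 27 times in hibernating bats, and in brain 31 times in active and 4 times in hibernating bats. These are 29.6 RPM (26.5 to 32.9) for active WAT, 2.34 RPM (1.54 to 3.40) for hibernating WAT, 3.10 RPM (2.10 to 4.40) for active brain and 0.329 RPM (0.0896 to 0.842) for hibernating brain. Active WAT stood highest and hibernating brain lowest, while the intervals of active brain and hibernating WAT overlapped. miR-574b-5p had 130 reads in active and 3 in hibernating WAT, and 19 in active and 1 in hibernating brain. Its levels were 11.4 RPM (9.50 to 13.5), 0.260 RPM (0.0536 to 0.760), 1.90 RPM (1.14 to 2.96) and 0.0822 RPM (0.00208 to 0.458) in that order. Both hibernating libraries lay below both active libraries, and the intervals of the 2 hibernating libraries overlapped.

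miR-3135-5p had 4874 reads in active and 361 in hibernating WAT, and 808 in active and 639 in hibernating brain. Its levels were 426 RPM (414 to 438), 31.3 RPM (28.1 to 34.7), 80.7 RPM (75.3 to 86.5) and 52.6 RPM (48.6 to 56.8). On clean reads, the intervals of its 4 levels were all apart, with active WAT highest and hibernating WAT, not hibernating brain, lowest.

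**Figure D1:**
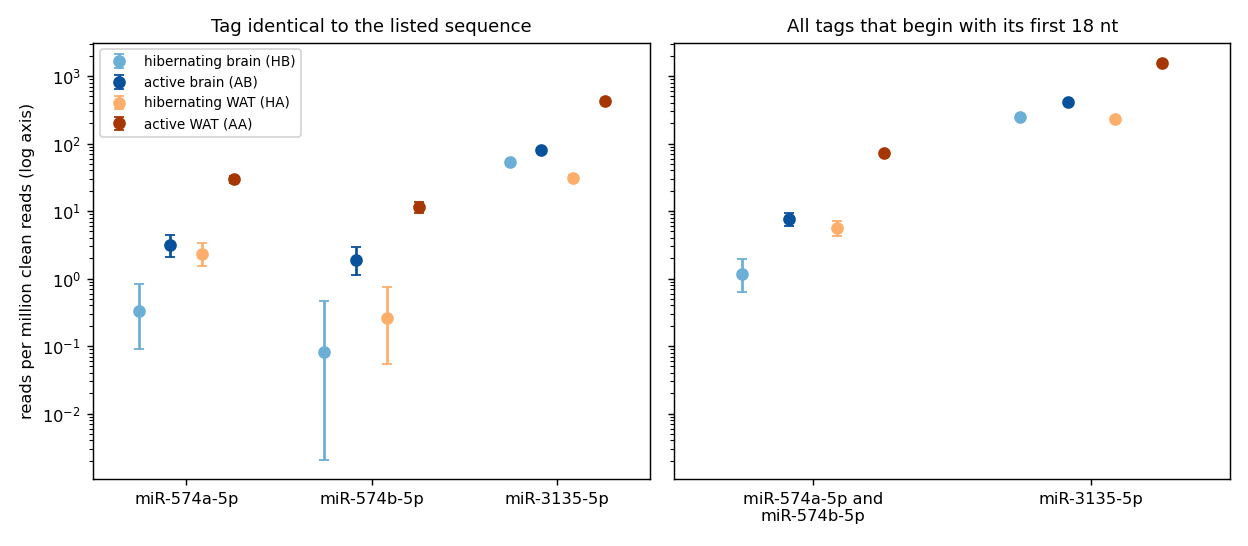
Level of each miRNA in the 4 libraries, in reads per 1000000 clean reads on a log axis, for the tag identical to the listed sequence (left) and for all tags that begin with its first 18 nt (right, where miR-574a-5p and miR-574b-5p are 1 point). Points are single libraries and bars are exact Poisson 95% counting intervals, hidden where shorter than the point. Active WAT is the highest point of every set, and miR-3135-5p in hibernating WAT lies at 31.3 against 426 in active WAT.

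The difference between states is given as the log2 ratio of hibernating over active reads after TMM scaling (a trimmed mean that sets the middle of the listed miRNAs near 0). In WAT it was -3.31 (-3.93 to -2.74) for miR-574a-5p, which is 9.92-fold lower (6.69 to 15.3) in hibernation. For miR-574b-5p it was -5.10 (-7.40 to -3.52), on 3 reads in the hibernating library, and for miR-3135-5p -3.42 (-3.58 to -3.26), or 10.7-fold lower (9.61 to 11.9). Of the 142 listed miRNAs with 10 or more reads in the WAT pair, 41 had a log2 ratio of -1 or lower, which is 28.9%. That share is the background for the 3 miRNAs, all of which were chosen by this contrast. Among the conserved miRNAs, to which all 3 belong, 28 of 81 were as low, which is 34.6%. The count of 41 depended on the scaling, from 19 with TMM over the conserved miRNAs to 54 with clean reads. At the edge of this limit, miR-130-3p lay just inside with -1.01 and miR-486-3p just outside with -0.94. Among the 90 listed miRNAs with 100 or more reads in WAT, miR-574b-5p had the lowest ratio, miR-3135-5p the third and miR-574a-5p the fourth. The pooled RNA of active WAT had the lowest integrity number of the 4 pools in the study's methods, and its part in these ratios was not tested.

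In brain, which was not used to choose them, the 3 miRNAs parted. The background there was 27 of 153 listed miRNAs with a log2 ratio of -1 or lower, or 17.6%. miR-574a-5p was among them with -2.95 (-4.91 to -1.45), or 7.70-fold lower (2.72 to 30.0), on 4 against 31 reads. miR-574b-5p was also among them with -4.24 (-9.62 to -1.59), on 1 against 19 reads. miR-3135-5p was not, with -0.33 (-0.48 to -0.18), or 1.26-fold lower (1.13 to 1.40), and ranked 32 from the lowest of 95 miRNAs with 100 or more reads in brain. The study also measured miR-574a-5p by quantitative PCR in individual bats of each state. There it reported a significantly lower level in hibernating WAT, whereas the lower level in hibernating brain was not significant. The brain fall of miR-574a-5p thus rests on the few reads of the pooled libraries.

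The tissues are set against each other by the difference of the log2 ratios, WAT minus brain. It contains the WAT ratio on which the miRNAs were chosen and is therefore a description, not a test. For miR-3135-5p it was -3.09 (-3.31 to -2.87). For miR-574a-5p the difference was -0.36 (-1.99 to 1.68) and for miR-574b-5p -0.86 (-4.37 to 4.74). Both of these intervals include 0 and are wide. By tags of 20 nt or more that begin with their first 18 nt, a count chosen after seeing the data that leaves out both listed forms, the difference for miR-574-5p was -1.57 (-2.84 to -0.20).

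**Figure D2:**
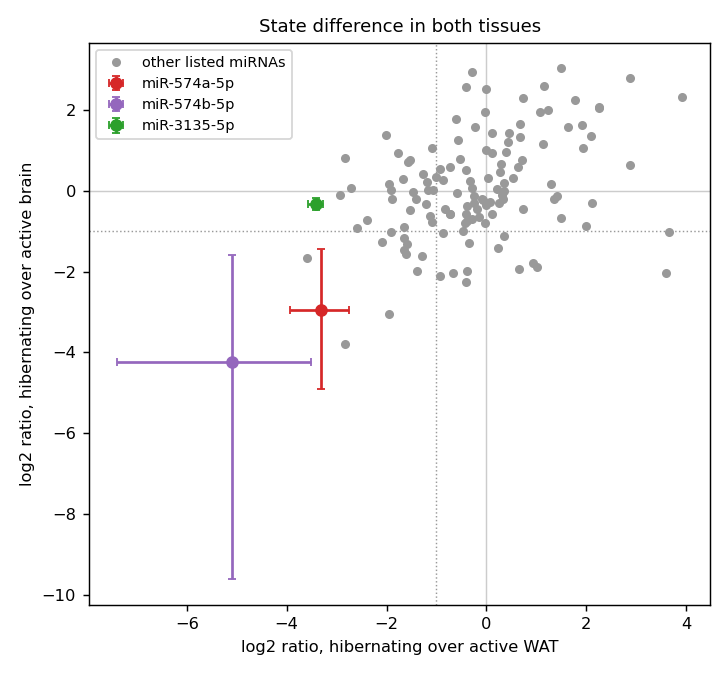
Log2 ratio of hibernating over active reads (TMM-scaled) in WAT on the x axis and in brain on the y axis for each listed miRNA with 10 or more reads in both pairs, grey for the others and coloured for the 3 described here. Bars are exact 95% counting intervals and dotted lines mark -1. miR-574a-5p and miR-574b-5p lie far to the lower left, whereas miR-3135-5p lies at -3.42 in WAT and at -0.33 in brain.

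Levels in WAT and brain were also compared within each state, again as a description. On clean reads, miR-574a-5p was 9.54-fold higher in WAT than in brain (6.60 to 14.3) among active bats and 7.11-fold higher (2.48 to 28) among hibernating bats, and these intervals overlap. miR-574b-5p was 5.99-fold higher in active WAT than in active brain (3.68 to 10.3), and no ratio is given in hibernation, where neither library passed 3 reads. For miR-3135-5p the order on this scale turned over. In the active state it was 5.28-fold higher in WAT (4.90 to 5.69). In hibernation WAT had 0.595 of the brain level (0.522 to 0.678). The listed miRNAs together held 1520859 reads in hibernating WAT and 2546410 in hibernating brain. Scaling by these reads would raise the WAT side of the ratio, and the order on that scale was not tested.

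The brain and WAT libraries were compared by miRNAs known to mark cell types. None of these marks fat cells, so the WAT label itself was not checked. The summed level of 4 neuronal miRNAs (miR-124 and miR-9 arms) was 37582 RPM in hibernating and 51503 RPM in active brain, against 34.7 and 30.9 RPM in the hibernating and active WAT libraries. The 2 oligodendrocyte miRNAs (miR-219 arms) summed to at least 3414 RPM in brain and at most 2.10 RPM in WAT. The 3 muscle miRNAs (miR-1, miR-133 and miR-206) summed to 17409 RPM in hibernating and 18253 RPM in active WAT, above the 1605 to 1948 RPM of brain. The 4 blood cell miRNAs (miR-142 and miR-486 arms) summed to 253 and 268 RPM in the same WAT libraries, and to 28.1 and 62.4 RPM in the corresponding brain libraries. The 2 epithelial miRNAs (miR-200a-3p and miR-200b-3p) summed to 25.9 RPM in hibernating and 2.45 RPM in active WAT. In the corresponding brain libraries they summed to 10.2 and 30.3 RPM. Of all 15 markers, 2 were lower and 3 higher by 1 or more on the log2 scale in hibernating WAT. In each WAT library 2 were at 0. In brain 5 were lower and 1 higher. miR-124-5p and miR-219-5p had no ratio in WAT and miR-142-3p none in brain, with fewer than 10 reads in the pair. Over all listed miRNAs with 10 or more reads, 41 of 142 were lower (28.9%) and 29 higher in WAT. In brain 27 of 153 were lower (17.6%) and 35 higher. The summed neuronal, muscle and blood cell levels of the 2 WAT libraries were thus close to each other, whereas the epithelial sums were apart. Close sums can hide single markers: in hibernating WAT 1 neuronal marker was lower and 1 higher, and 1 muscle marker was lower. The part of the cell make-up in the ratios of the 3 miRNAs was not tested.

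Short sequences as a class did not lie low in hibernating WAT. Of the 32 listed sequences of 18 or 19 nt with 10 or more reads in the WAT pair, 7 were lower and 11 higher by 1 or more on the log2 scale. Their median log2 ratio was 0.15, against -0.29 over all 142. Without the 3 described here, 4 of 29 short sequences were lower (13.8%) and their median was 0.45. In brain the 34 short sequences had a median of 1.03, against 0.01 over all 153, and 3 of them were lower by 1 or more. Without the 3 miRNAs described here, 1 of 31 was lower (3.23%) and the median was 1.06.

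The same 5′ ends left other tags besides the listed ones. Tags that begin with the 18 nt of miR-574b-5p, which includes every miR-574a-5p read, numbered 44 with 991 reads. Active WAT had 836 of them, hibernating WAT 65, active brain 76 and hibernating brain 14. Their levels were 73.1 RPM (68.2 to 78.2), 5.63 RPM (4.35 to 7.18), 7.59 RPM (5.98 to 9.51) and 1.15 RPM (0.629 to 1.93). The 2 listed tags made up 553 of the 991 reads, or 55.8%. The order of the libraries was that of miR-574a-5p, with overlapping intervals again for active brain and hibernating WAT.

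These tags shared 1 start and differed at the 3′ end. Of 1010 reads that hold bases 2 to 17 of miR-574b-5p, 98.4% began at its base 1. The 5 commonest forms over the 4 libraries were miR-574a-5p with 400 reads, a 21 nt form with 176, miR-574b-5p with 153, and 2 other forms with 53 and 43. The longest that continued the same series of bases was 24 nt long and had 2 reads, both from active WAT. They are shown here because they differ only beyond base 18, in capitals.
21 nt form: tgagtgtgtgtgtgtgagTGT
form with 53 reads: tgagtgtgtgtgtgtgagTGA
form with 43 reads: tgagtgtgtgtgtgtgagTAA
24 nt form: tgagtgtgtgtgtgtgagTGTGTG
The 21 nt form had 158 reads in active and 7 in hibernating WAT, and 11 in active brain but none in hibernating brain. In active WAT the lengths of the family thus peaked at 19 nt and again at 21 nt, where all its forms together had 267 reads. Forms that end in 1 or more A bases not continuing the series held 17.5% of the family's reads (14.9 to 20.2) for active WAT, 26.2% (16 to 38.5) for hibernating WAT, 13.2% (6.49 to 22.9) for active brain and 57.1% (28.9 to 82.3) for hibernating brain. The intervals of the WAT libraries overlap, so a difference in these A-ended forms between the WAT states was not detectable at this depth. The intervals of the brain libraries do not overlap, on 8 of 14 reads in hibernating and 10 of 76 in active brain.

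The state difference of the miR-574-5p family in WAT was similar in tags of 18 to 19 nt and of 21 nt and smaller in longer ones. The log2 ratio was -3.57 (-4.14 to -3.05) for tags of 18 to 19 nt and -3.92 (-4.81 to -3.15) for tags of 21 nt. For tags of 22 nt or more it was -1.52 (-2.42 to -0.70), on 16 against 58 reads. miR-574b-5p alone made up 4.62% (0.962 to 12.9) of the family in hibernating and 15.6% (13.2 to 18.2) in active WAT. For miR-574a-5p these shares were 41.5% and 40.4%. The more negative ratio of miR-574b-5p thus went with a smaller share of the 18 nt form in the hibernating library, while the share of the 19 nt form was nearly equal.

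Since the sequence is largely a TG repeat, other repeat tags were counted for comparison. Tags with 6 or more TG units in a row that did not begin with the miR-574-5p sequence numbered 154 and held 199 reads, of which active WAT had 68, hibernating WAT 81, active brain 22 and hibernating brain 28. No such tag had more than 5 reads over the 4 libraries, against 400 for miR-574a-5p. The 3 commonest, in which the TG runs can be seen in full, are given next.
repeat tag with 5 reads: ATGTATATGTGTGTGTGTGT
first repeat tag with 4 reads: GGTGTGTGTGTGTGTGTGT
second repeat tag with 4 reads: TGCGTGTGTGTGTGTGAGT
The first of the tags with 4 reads was found in hibernating WAT alone and the second in active WAT alone. In WAT the log2 ratio of these repeat tags was 0.59 (0.11 to 1.08), whereas that of the tags beginning with the miR-574-5p sequence was -3.35 (-3.74 to -2.98). In brain the repeat tags had 0.36 (-0.50 to 1.23) and the miR-574-5p family -2.43 (-3.37 to -1.60). Tags with 6 or more CA units, the other strand of such a repeat, had 145 reads and a WAT log2 ratio of 2.14 (1.5 to 2.83). No read in any library held the reverse complement of bases 2 to 17 of miR-574b-5p or of miR-3135-5p. The second tag with 4 reads resembles miR-574a-5p, and the repeat tags were therefore also split by whether they hold bases 2 to 17 of miR-574b-5p with at most 1 mismatch. The 41 near copies had 53 reads and a WAT log2 ratio of -0.31 (-1.31 to 0.65), and the other 113 tags had 146 reads and 0.93 (0.35 to 1.52).

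For miR-3135-5p, 297 tags with 27738 reads began with its 18 nt. Active WAT had 17902 of these reads, hibernating WAT 2694, active brain 4084 and hibernating brain 3058. Their levels were 1565 RPM (1542 to 1588), 233 RPM (225 to 242), 408 RPM (396 to 421) and 251 RPM (243 to 261). By this count on clean reads, WAT still had 3.84 times the brain level (3.71 to 3.97) in the active state. In hibernation it had 0.928 of the brain level (0.881 to 0.978). Here too, another scale across the tissues was not tested. The start was again fixed, as 99.7% of the 28292 reads with bases 2 to 17 began at base 1. The 18 nt form was taken as a share of the reads that begin with its 18 nt. It made up 27.2% (26.6 to 27.9) in active WAT and 13.4% (12.1 to 14.7) in hibernating WAT. Its share was 19.8% in active brain and 20.9% in hibernating brain.

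The other end of the tags was spread over every length that the libraries hold, from 18 to 30 nt. Single tags of growing length, each the previous plus the next base, held 23712 of the 27738 reads. After the 18 nt form with 6682 reads the commonest were a 24 nt tag with 3758, a 23 nt tag with 3260, a 20 nt tag with 3093 and a 19 nt tag with 3001. These 4 and the longest of the series are shown to make the common start visible, with the bases beyond the listed 18 in capitals.
19 nt tag: ggctggtccgagtgcagtG
20 nt tag: ggctggtccgagtgcagtGG
23 nt tag: ggctggtccgagtgcagtGGTGT
24 nt tag: ggctggtccgagtgcagtGGTGTC
30 nt tag: ggctggtccgagtgcagtGGTGTCTTACAA
The 24 nt tag had 2605 reads in active and 431 in hibernating WAT, and 414 in active and 308 in hibernating brain. The 30 nt tag had no read in either brain library, 33 in hibernating WAT and 6 in active WAT. The 5 commonest forms were thus highest in active WAT, but the longest was most often read in hibernating WAT.

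**Figure D3:**
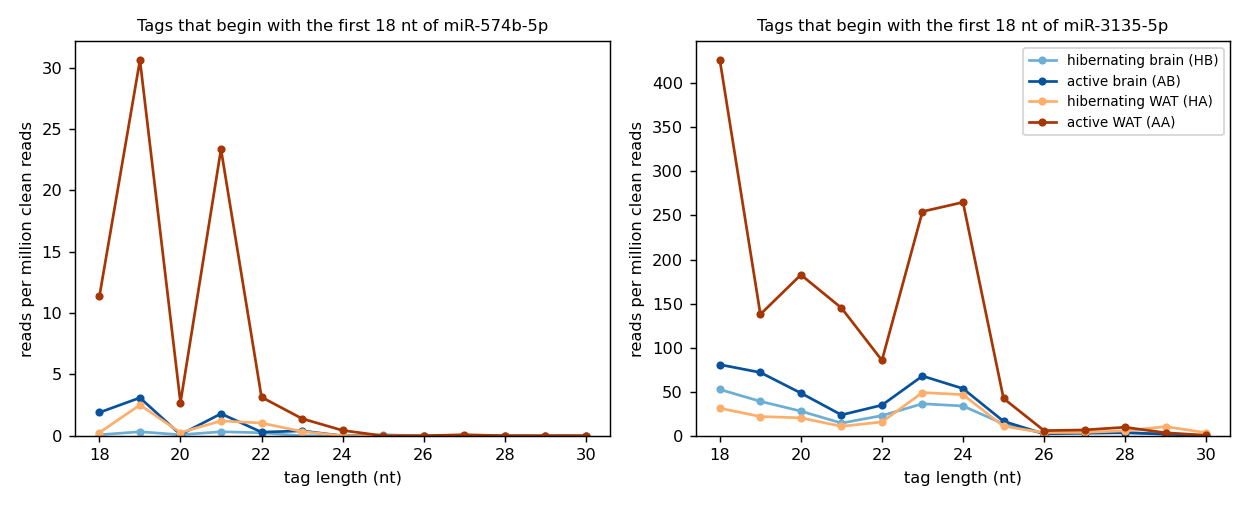
Level of the tags that begin with the first 18 nt of miR-574b-5p (left) and of miR-3135-5p (right) by tag length in nt, in reads per 1000000 clean reads, with 1 line per library. The miR-574-5p tags of active WAT peak at 19 and 21 nt, whereas the miR-3135-5p tags peak at 18 nt and again at 23 to 24 nt and tail off to 30 nt.

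The state difference in WAT depended on the length of the miR-3135-5p tag. The log2 ratio was -3.42 (-3.58 to -3.26) at 18 nt and -2.31 (-2.51 to -2.12) at 19 nt. It was -2.79 (-2.92 to -2.66) at 20 to 22 nt on 540 against 4727 reads, and -2.05 (-2.14 to -1.96) at 23 to 25 nt on 1230 against 6425 reads. The order by length was not steady, since tags of 20 nt had -2.82 (-3.02 to -2.62) and those of 21 nt -3.41 (-3.68 to -3.14), as low as at 18 nt. At 26 to 28 nt it was -0.41 (-0.71 to -0.12), on 151 against 254 reads. At 29 to 30 nt the direction was opposite, 2.13 (1.65 to 2.64), on 160 against 46 reads. In brain the ratios of the same lengths and classes ran from -0.59 to 0.34, and those at 26 to 28 nt (-0.07 to 0.76) and at 29 to 30 nt (-0.66 to 1.24) included 0.

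Long tags of all kinds were likewise more frequent in hibernating WAT. Reads of 26 to 28 nt made up 6.18% of hibernating and 0.593% of active WAT, and reads of 29 to 30 nt 0.664% and 0.0348%. On the same scale, the log2 ratio of all clean reads was 0.43 at 18 nt, -0.08 at 20 to 22 nt, 1.28 at 23 to 25 nt, 3.73 at 26 to 28 nt and 4.60 at 29 to 30 nt. Relative to all reads of the same length, the miR-3135-5p tags were lower in hibernating WAT in each class, by a log2 difference of -3.85 at 18 nt, -2.71 at 20 to 22 nt, -3.32 at 23 to 25 nt, -4.15 at 26 to 28 nt and -2.47 at 29 to 30 nt. The part of the length make-up of the 2 WAT libraries in the ratio of the listed form was not tested. Shares of the 18 nt form can also be set beside other listed miRNAs. Among the 90 listed sequences with at least 100 reads by their first 18 nt in both WAT libraries, that share was lower in hibernation for 59 (65.6%), with medians of 1.39% in hibernating and 2.04% in active WAT. The share of miR-3135-5p was lower by 13.8 percentage points, and 3 sequences had a larger fall. With a median share of 2.04% in active WAT, many of the sequences could not fall that far, so this rank supports nothing. The 18 nt form is also the listed form on whose WAT reads miR-3135-5p was chosen.

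**Figure D4:**
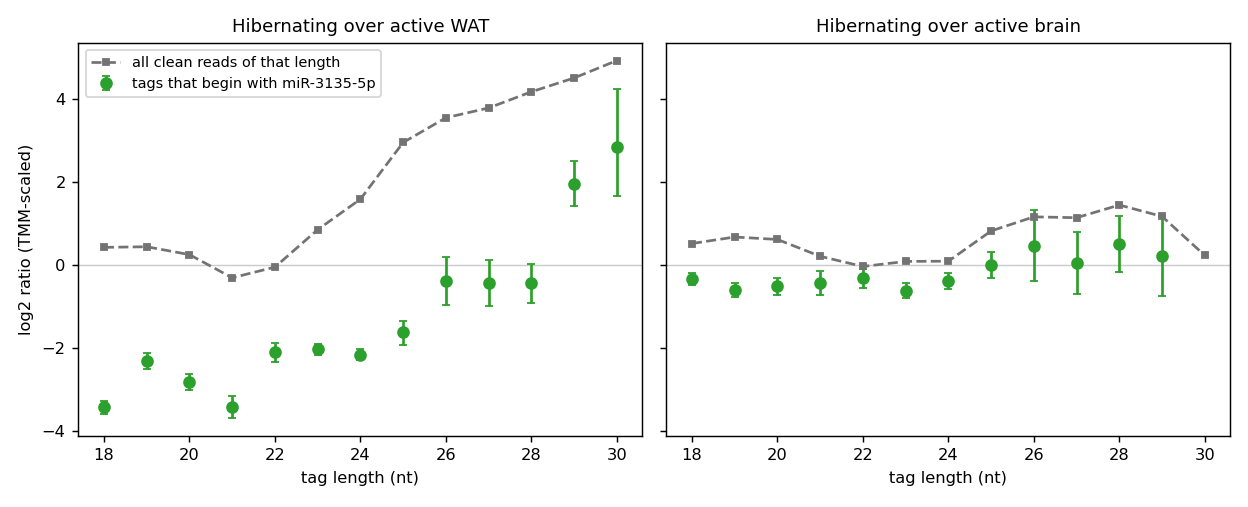
Log2 ratio of hibernating over active reads (TMM-scaled) by tag length in nt, in WAT (left) and in brain (right). Green points are tags that begin with miR-3135-5p, with exact 95% counting intervals, and grey squares are all clean reads of that length. In WAT the green points lie between -3.42 and -1.62 from 18 to 25 nt, with the values at 20 and 21 nt below that at 19 nt, and are above 0 at 29 and 30 nt. They lie below the grey squares throughout.

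The longer tags ran into more than 1 sequence. After the first 20 bases, 11256 reads went on with T and 2976 with C. A long tag of each branch is shown, with the bases after base 20 in capitals, because the branches differed in their ratio.
T branch, 30 nt: ggctggtccgagtgcagtggTGTCTTACAA
C branch, 29 nt: ggctggtccgagtgcagtggCGCCTACAA
The T branch had 7617 reads in active WAT, 1327 in hibernating WAT, 1318 in active brain and 994 in hibernating brain. In the same order the C branch had 1319, 429, 669 and 559 reads. Its share of both branches was 14.8% (14 to 15.5) for active WAT, 24.4% (22.4 to 26.5) for hibernating WAT, 33.7% (31.6 to 35.8) for active brain and 36.0% (33.6 to 38.4) for hibernating brain, so it was larger in brain than in WAT and larger in hibernating than in active WAT. The WAT log2 ratio was -2.18 (-2.27 to -2.10) for the T branch and -1.28 (-1.44 to -1.13) for the C branch. In brain the branches had -0.40 (-0.52 to -0.28) and -0.25 (-0.41 to -0.09), intervals that overlap. The listed 18 nt form ends before this point and cannot be assigned to either branch.

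Tags that leave the miR-3135-5p sequence earlier were also frequent, and these groups were defined after the tags had been seen. Of the tags with its first 11 bases, 29848 reads had G as the next base, as miR-3135-5p has, 6738 had T, 45 had A and 42 had C. Nearly all of the T group, 190 tags with 6643 reads, went on with TGG. Its common 21 nt tag and a 29 nt tag are shown with the bases after base 11 in capitals.
21 nt tag: ggctggtccgaTGGCAGTGGG
29 nt tag: ggctggtccgaTGGCAGTGGGTTATCAGA
The Y4 RNA of mammals is known to share its first bases with Y3 RNA and then to go on with TGG, which is given as background only. The TGG group had 3389 reads in active WAT, 851 in hibernating WAT, 1538 in active brain and 865 in hibernating brain, or 296, 73.7, 154 and 71.1 RPM. Active WAT was again highest, while the hibernating libraries were close to each other. Its log2 ratio was -1.66 (-1.77 to -1.55) in WAT and -0.82 (-0.94 to -0.70) in brain. In WAT this was nearer to 0 than the -2.40 (-2.46 to -2.34) of the tags with G as the next base, and in brain farther from 0 than their -0.37 (-0.44 to -0.31).

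The opposite end of a stem was looked for as tags ending within 4 bases after the complement of bases 1 to 4 and holding, further 5′, the complement of bases 14 to 20. Such tags numbered 51 with 174 reads, of which active WAT had 35, hibernating WAT 48, active brain 54 and hibernating brain 37. The most abundant is shown with these complementary stretches in capitals.
24 nt tag: CCACTGCttcacttgactAGCCtt
It had 10 reads in active WAT, none in hibernating WAT, 6 in active brain and 10 in hibernating brain. Its last 16 bases before the final T bases, CTTCACTTGACTAGCC, were held by 80 tags with 484 reads. Active WAT had 127 of them, hibernating WAT 61, active brain 150 and hibernating brain 146. This 3′ sequence had a log2 ratio of -0.72 (-1.19 to -0.27) in WAT and -0.03 (-0.37 to 0.31) in brain. It was lower in hibernating WAT, as miR-3135-5p was, by a smaller ratio, whereas the looser group of 51 tags had 0.79 (0.13 to 1.46) in WAT. These bases are known as those near the 3′ end of Y3 RNA. Whether these tags and miR-3135-5p come from 1 transcript was not tested.

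The listed miRNAs whose levels over the 4 libraries were most like each of the 3 were found by the smallest root mean square difference of centred log2 levels among 129 with 100 or more reads. For miR-574a-5p this was miR-378-3p, known from metabolic tissues, with a difference of 0.703. It had 180178 reads in active WAT, 11775 in hibernating WAT, 4624 in active brain and 1459 in hibernating brain. miR-574b-5p followed with 0.829 and miR-6119-3p with 0.879. For miR-574b-5p the nearest were miR-574a-5p with 0.829, miR-378-3p with 1.38 and a bat-specific miRNA with 1.39. For miR-3135-5p they were miR-455-3p with 0.586, a bat-specific miRNA with 0.847 and miR-100-3p with 0.866. The listed sequence of the bat-specific one is that of miR-100-3p with GT added at the 3′ end, so these are 2 forms of 1 sequence. miR-455-3p had 535 reads in active WAT, 65 in hibernating WAT, 201 in active brain and 209 in hibernating brain, which is also a profile with active WAT highest and hibernating WAT lowest. Each likeness rests on 4 libraries and is a description.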

How the data were processed

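The authors removed adapter and low quality reads from Solexa libraries and deposited, for each library, every distinct tag with its raw count, without normalization. Tags are 18 to 30 nt long. Clean reads numbered from 10007650 (AB) to 12159756 (HB) per library. The reads of a miRNA were those of the tag with exactly the listed mature sequence. TMM factors from edgeR 4.0.16 (R 4.3.3), computed on all listed miRNAs of a pair, scaled the ratios, with exact Clopper-Pearson intervals (SciPy 1.17.1) and a floor of 3 reads. No ratio was given where neither library passed 3 reads. Differences of log2 ratios combined the 2 intervals by squaring and adding. Alternatives were other scalings (clean reads, listed reads, median of ratios in DESeq2 1.42.0, TMM over the 119 conserved miRNAs), other count rules and other minimum reads. The scripts were tested on simulated data. Each condition was 1 library, so no p-value was computed and no model of spread was fitted.

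The miRNAs and all lists were chosen with earlier results of these data known. Named were the 3 miRNAs, the 3 listed miRNAs nearest to each (bat-specific ones are given without their names), the 5 commonest tags of each family, the 3 commonest other TG repeat tags and the miRNAs beside a WAT log2 ratio of -1 (100 or more reads). Tags shown for the branches, the longest forms, the shared first 11 bases and the opposite end were chosen after their values were seen. A genome was not used here, so no coordinates are given.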

Additional observations from a re-analysis of the deposited data

Results flagged for a closer look

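Reads outside the listed miRNAs were found in tags related to miR-3135-5p. Tags that share its first 11 bases but not its first 17 held 4615 reads in active WAT, 1022 in hibernating WAT, 1754 in active brain and 1079 in hibernating brain, with a log2 ratio of -1.84 (-1.94 to -1.74) in WAT and -0.69 (-0.80 to -0.58) in brain. Tags complementary to both ends of the sequence held 174 reads over the 4 libraries. Both were counted outside the listed forms. They were defined after the tags had been seen, so their size supports nothing. Most of the first group, 6643 of 8470 reads over the 4 libraries, is the TGG group described above.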

How the results depend on the processing

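No paired analysis was possible because each condition is 1 library, and for the same reason no library could be left out. Of 42 alternative values of the 6 state ratios, 15 moved by more than the counting interval and 0 changed direction. By the first 18 nt, bases 2 to 17 and tags of 20 nt or more, miR-574a-5p and miR-574b-5p are the same reads. Their equal values by these rules are counted under both names and are not separate checks. With main values of -3.31 for miR-574a-5p, -5.10 for miR-574b-5p and -3.42 for miR-3135-5p in WAT, TMM over the conserved miRNAs gave -2.53 for miR-574a-5p and -2.64 for miR-3135-5p. For miR-3135-5p, scaling by clean reads gave -3.77, by listed reads -3.10 and by DESeq2 -3.17. Tags beginning with the first 18 nt gave -3.44 for miR-574b-5p and -2.49 for miR-3135-5p. Tags with bases 2 to 17 gave -3.49 and -2.59. For both count rules the TMM factors were computed anew on their own counts. On the main factors, tags beginning with the first 18 nt of miR-574b-5p had the -3.35 given above. Tags of 20 nt or more, an alternative chosen after seeing the data, kept the main factors and gave -3.10 and -2.12. In brain miR-574b-5p went from -4.24 to -1.52 with tags of 20 nt or more. miR-3135-5p went from -0.33 to -0.62 by clean reads, -0.68 by the first 18 nt and -0.58 by bases 2 to 17. On the main factors its brain tags of 18 to 19 nt had -0.45 and those of 20 nt or more -0.39. The -0.68 thus holds the change of factors as well as that of the count. The WAT minus brain difference of miR-3135-5p, -3.09, was -2.68 by listed reads, -2.83 by DESeq2, -2.44 by conserved miRNAs, -1.81 by the first 18 nt, -2.01 by bases 2 to 17 and -1.74 by tags of 20 nt or more. That of miR-574a-5p, -0.36, turned to 0.046 by listed reads and 0.28 by conserved miRNAs, both within its interval, and was -1.57 (-2.84 to -0.20) by tags of 20 nt or more, where the interval leaves out 0. The 41 listed miRNAs lower in WAT became 19 with conserved scaling and 21 at 100 reads, and the 27 in brain became 14 at 100 reads. Beyond the factors computed anew and the fewer miRNAs tested at 100 reads, the cause of these moves was not tested. Depth limits miR-574-5p most, with 1 and 4 exact reads in hibernating brain.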
